A study of Mus musculus with 5 samples.

Results

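The genes of the proteasome were followed in group 2 innate lymphoid cells (ILC2s) of the mouse lung, with and without IL-33. Members were the genes whose only symbol on an array probe set begins with Psma, Psmb, Psmc, Psmd, Psme, Psmf or Psmg and a number, and a gene with several such probe sets was read from the one of highest mean signal over the arrays. The pattern found 49 genes of 22180 with such a probe set, and all 49 passed the filter that left 16635 genes for testing. Of them, 47 were grouped here by their part in the proteasome, its assembly or its regulation. The other 2, Psmc3ip and Psme3ip1, are named as partners that bind a proteasome protein and were kept apart. Psma4, the remaining gene of the alpha ring, shares its probe sets with another symbol and was not analysed here. ILC2s are lymphocytes that live in tissues and make type 2 cytokines. The cells came from lungs of adult male mice that had received no stimulus, in 3 wild-type arrays and 2 arrays of IL-33 knockout mice, each array being a biological replicate. The knockout allele, the strain, how the cells were isolated and whether animals were pooled are not given in the sources used here.

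The proteasome degrades proteins that carry a chain of ubiquitin. Its barrel, the 20S core particle, is built from outer rings of alpha subunits and inner rings of beta subunits, and some of the beta subunits cut peptide bonds. In lymphocytes and in cells exposed to interferon, these constitutive catalytic subunits can be replaced by the immunoproteasome subunits, which favour peptides that fit MHC class I molecules. A 19S regulatory particle of ATPase and non-ATPase subunits recognises, unfolds and feeds in the substrate, dedicated chaperones assemble both particles, and other activators can take the place of the 19S particle.

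All values are log2 signals, so a difference of 1 unit is a doubling, and differences are knockout minus wild type. The array medians lay between 4.29 and 4.33 and the lower quartiles between 3.24 and 3.27. Il33 read 3.32 to 3.39 in wild-type and 3.79 and 3.95 in knockout arrays, below the array medians in both genotypes. Its signal was thus higher, not lower, in the arrays labelled knockout, and where its probes lie relative to the deleted part is not given in the sources used here. All samples are labelled male, but Xist, the RNA of the inactive X chromosome, read 7.91 in knockout replicate 2 and 2.35 to 3.10 elsewhere. Of the Y-linked genes, Kdm5d at 4.79 and Eif2s3y at 6.14 were lowest on that array and Uty at 7.17 was highest. The values of both knockout arrays are therefore given separately for the genes that results turn on, and the main differences that rest on this array are also given without it. The mean of 13 ILC2 identity genes was 8.43 to 8.66 on all arrays, with 3 of the 13 higher and 2 lower in both knockout arrays. Summed markers of some other cells separated the genotypes. The summed log2 signal of 14 lung epithelium markers was 59.2 to 60.7 in wild type and 75.7 and 64.4 in knockout, with 4 of the 14 higher in both knockout arrays. Much of the high sum on knockout replicate 1 came from Scgb1a1, Scgb3a2 and Bpifa1, at 8.81, 6.21 and 8.52. On knockout replicate 2 these read 5.93, 2.07 and 3.22. The sum of 10 endothelium markers was 52.4 to 54.2 against 56.5 and 59.3, with 5 of 10 higher and 1 lower. That of 7 mast cell, basophil and eosinophil markers was 28.3 to 29.5 against 30.5 and 30.7, with 2 of 7 higher. The sums for T cells, for fibroblasts with smooth muscle and for erythrocytes with platelets also separated the genotypes, by less than 1 unit. For 8 markers of NK cells and ILC1s the sums overlapped, at 33.6 to 35.0 in wild type and 34.3 and 38.5 in knockout. None of the 8 separated the groups, but Gzma read 6.56 on knockout replicate 2 and 3.27 to 4.01 elsewhere. No marker is listed at 0 on these arrays, and the part of such cells in the results below was not tested. In bulk RNA, a change in the number of cells of a type and a change in RNA per cell cannot be told apart.

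No proteasome gene passed the test between genotypes, and about as many differences lay above 0 as below it. The largest was Psmg4, a chaperone of core assembly, 2.36-fold higher in knockout arrays. Psmd10, Psme3 and Psmd8 were 1.85-fold, 1.53-fold and 1.41-fold higher, and Psmb9, of the immunoproteasome, was 1.36-fold lower, all without overlap of the groups. With limma, 0 of 49 genes had an adjusted p below 0.05, as against 0% of the 16635 genes tested, and the lowest adjusted p among the 49 was 0.402. At an unadjusted p below 0.05, 5 genes were higher (Psmg4, Psmd8, Psmd10, Psme3 and Psma5) and 0 lower. Over all genes tested 5.05% were higher and 2.59% lower by that rule. Of the 49 genes, 24 were above and 25 below 0, with a median difference of -0.0007. Over all genes 9506 were above and 6631 below 0, 498 had 1 value on all arrays, and the median was 0.04.

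The genotypes did not overlap in 12 of the 49 genes, 7 of them higher and 5 lower in knockout. That is 14.3% and 10.2%, where all genes tested gave 11.6% and 6.32%. Equal values on several arrays, which are frequent in these data, make such a separation less likely. Fewer than 4 distinct values were present in 9 of the 49 genes and in 35.3% of all genes tested. Among genes with at least 4 distinct values the separation was seen in 12 of 40 proteasome genes and in 26.8% of all.

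For most genes the intervals kept the difference below a doubling in either direction, but they were wide beside the differences seen. The limma 95% interval, taken gene by gene, lay within 1 log2 unit of 0 for 41 of the 49 genes (83.7%), as for 71.4% of all genes tested. Only Psmg4 differed by 1 unit or more, 2.04% of the 49 against 2.2% of all. The typical size of a difference, without sign, was 0.19 for the 49 genes and 0.17 for all genes. The median distance from the difference to the end of its interval was 0.48 and 0.45, so changes of the typical size were not resolved. The median gap between the knockout arrays was 0.37 for proteasome genes and 0.22 for all genes. The median SD among wild-type arrays was 0.11 and 0.14. A gap is larger than the SD of the same pair of values, so the gap and the SD cannot be compared directly between genotypes. Within each measure, proteasome genes were above all genes in the knockout gap and below them in the wild-type SD.

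**Figure D1:**
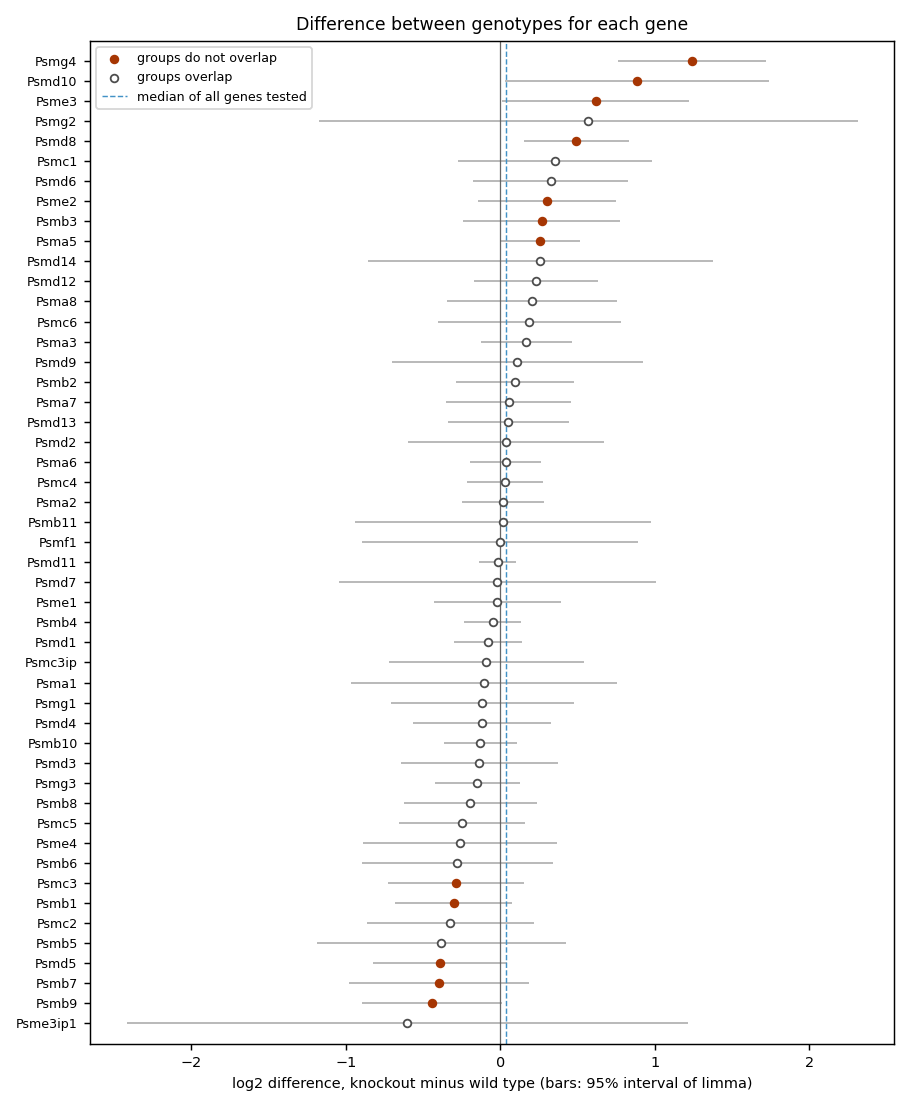
Log2 difference, knockout minus wild type, for each of the 49 genes in order of size, with the 95% interval of limma. Filled points are the 12 genes whose groups do not overlap, the dashed line is the median of all genes tested, 0.04, and Psmg4 at 1.24 stands highest.

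The constitutive catalytic subunits read lower in knockout than in the mean of wild-type arrays, and most of that came from 1 array. Psmb5, which carries the chymotrypsin-like activity, read 9.38, 8.96 and 9.62 in wild-type and 9.22 and 8.66 in knockout arrays. Psmb6, of the caspase-like activity, read 8.12, 7.82 and 7.66 against 7.83 and 7.35. In both genes knockout replicate 1 lay inside the wild-type range and replicate 2 below it. Psmb7, of the trypsin-like activity, read 7.97, 7.98 and 8.06 against 7.92 and 7.30, with no overlap. The differences were -0.38 (SE 0.29), -0.28 (SE 0.22) and -0.40 (SE 0.21), and limma's adjusted p was 0.627, 0.634 and 0.623. Knockout replicate 2 was the lowest of the 5 arrays for all 3 genes, where it was the lowest for 21.1% of all genes tested. The median of the 3 differences was -0.38, and without that array it was -0.09. RefSeq also lists pseudogenes named after Psma5, Psmb5, Psmb6 and Psmb7, and whether the probes read them was not tested.

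The immunoproteasome subunits showed no gene that passed. Psmb9, whose gene lies beside the peptide transporter gene Tap1, read 6.98, 7.11 and 7.07 in wild-type and 6.84 and 6.38 in knockout arrays. Both knockout arrays were below all wild-type arrays, by 0.44 on average (SE 0.16), with an adjusted p of 0.623 by limma. Psmb8 read 7.43, 7.66 and 7.21 against 7.24 and 7.24, inside the wild-type range. Psmb10 read 8.78, 8.78 and 8.90 against 8.60 and 8.78, an overlap that includes equal values. Their differences were -0.19 (SE 0.15) and -0.13 (SE 0.08). Without knockout replicate 2 the difference of Psmb9 was -0.21.

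Since each immunoproteasome subunit takes the place of 1 constitutive subunit, the pairs were also compared within each array. Only the shift of this difference between arrays is read, not its size, because probe sets of different genes have no common scale. For Psmb8 minus Psmb5 the wild-type arrays averaged -1.89 ± 0.56 (SD, n = 3) and the knockout arrays -1.70 ± 0.39 (SD, n = 2). For Psmb9 minus Psmb6 the averages were -0.81 ± 0.29 and -0.97 ± 0.01, inside the wild-type range. Psmb10 minus Psmb7 averaged 0.81 ± 0.02 and 1.08 ± 0.56, with knockout replicate 1 at 0.68, below wild type, and replicate 2 at 1.48, above it. The shifts were 0.19, -0.16 and 0.27, with exact two-sided permutation p of 0.8, 0.5 and 0.6 and 0.8 for each after adjustment over the 3 pairs. With 3 arrays against 2 this test cannot go below 0.1.

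**Figure D2:**
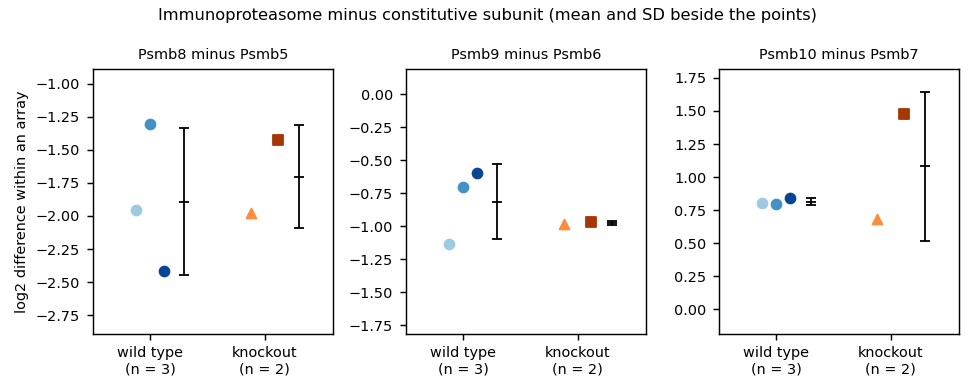
Log2 signal of an immunoproteasome subunit minus that of the constitutive subunit it replaces, within each array, for 3 pairs; points are arrays (wild type circles, knockout replicate 1 triangle, replicate 2 square) and bars are mean and SD. The vertical axes span equal ranges but have different zeros, and the groups overlap in the first 2 pairs while knockout replicate 2 at 1.48 stands above wild type in the third.

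The structural beta subunits went both ways. Psmb1 read 10.21, 10.23 and 10.17 in wild-type and 9.71 and 10.10 in knockout arrays. Both knockout arrays were lower, by 0.30 on average (SE 0.14). Psmb3 read 4.14, 3.71 and 4.14 against 4.15 and 4.37, a narrow separation at signals around the array median. Psmb2 and Psmb4 differed by 0.10 and -0.05 with overlap. Psmb11 and Psma8, core subunits found mainly in thymus and testis, were below the median gene tested, 5.02, on every array. Psmb11 read 4.28 on all 3 wild-type arrays and 3.78 and 4.82 in knockout, on either side of wild type.

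The alpha ring, through which substrates enter the barrel, had the smallest typical difference without sign, 0.08 in the median over its genes. Of its 6 measured genes 5 were above 0 in difference, between 0.02 and 0.26, and Psma1 was at -0.11. The group's median was 0.04, as was that of all genes. Psma5 alone did not overlap, at 3.57, 3.57 and 3.42 in wild-type and 3.87 and 3.69 in knockout arrays. That is a difference of 0.26 (SE 0.09) at signals near the lower quartile of all probe sets. Its other probe set, dimmer still, differed by -0.14, so the direction for Psma5 is uncertain. The 95% intervals of Psma2, Psma3, Psma6 and Psma7 reached no farther than 0.46 from 0, that of Psma5 reached 0.52, and that of Psma1 was the widest of the ring, from -0.97 to 0.75.

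Among the ATPase subunits of the 19S particle, 3 of 6 were above and 3 below 0. Psmc3 read 7.84, 7.96 and 7.84 in wild-type and 7.81 and 7.37 in knockout arrays, with replicate 1 only just below wild type. Its difference was -0.28 (SE 0.16), and -0.06 without knockout replicate 2. The others overlapped, from -0.32 for Psmc2 to 0.35 for Psmc1. The probe sets of Psmc2 both pointed down, and the one not used spread from 4.25 to 8.01 within wild type.

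Of the 11 non-ATPase subunits measured, Psmd8 alone separated the groups. Psmd8, a subunit of the lid, read 8.71, 8.41 and 8.60 in wild-type and 8.98 and 9.15 in knockout arrays. Both knockout arrays were above all 3 wild-type arrays, and the mean difference was 0.49 (SE 0.12) with an adjusted p of 0.514 by limma. Over the alternative settings it stayed between 0.40 and 0.58. The remaining 10 ran from -0.14 for Psmd3 to 0.33 for Psmd6. Psmd14, the deubiquitinase of the lid, differed by 0.26 and Psmd4, a ubiquitin receptor, by -0.12, both with overlap. Psmd11 was almost constant, at 7.945 on 1 wild-type array and 7.89 on the other 4 arrays.

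Of the 3 chaperones of the regulatory particle, 1 was higher and 1 lower without overlap of the groups. Among all genes tested 18% had no overlap. Psmd10, known as gankyrin, read 7.24, 6.44 and 7.19 in wild-type and 7.95 and 7.73 in knockout arrays. Both knockout arrays were higher, by 0.89 on average (SE 0.30), and wild type replicate 2 was far below the other wild-type arrays. Without that array the difference was 0.63. The gene lies on the X chromosome, and knockout replicate 2 is the array with the high Xist signal; the part of this in the result was not tested. Without knockout replicate 2 the difference of Psmd10 was 0.99. Psmd5 read 6.61, 6.42 and 6.46 against 5.90 and 6.31, lower in both by 0.39 on average (SE 0.15). Psmd9 read 5.66, 5.66 and 5.63 in wild type, and 6.20 and 5.32 in knockout, where the arrays lay on opposite sides. Limma's adjusted p was 0.623 for Psmd10 and Psmd5 and 0.883 for Psmd9.

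Psmg1 to Psmg4 encode the chaperones on which the alpha ring is built. Psmg4 read 5.37, 5.80 and 5.72 in wild-type arrays and 6.76 and 6.98 in knockout arrays. The gap between the nearest arrays of the groups was wider than the spread within either group. The difference was 1.24 (SE 0.17, 95% interval 0.76 to 1.72), with an unadjusted p of 0.0021 and an adjusted p of 0.402 by limma. It stayed between 1.11 and 1.35 over the alternatives, and its adjusted p between 0.118 and 0.793. Psmg3, the partner of Psmg4 in a dimer, read 6.04, 5.86 and 5.86 against 5.86 and 5.68, a difference of -0.15 with overlap. Psmg1 read 6.57, 6.10 and 5.97 against 6.10 and 6.10. Psmg2, the partner of Psmg1, read 5.20, 5.42 and 5.96 against 6.96 and 5.23, so that knockout replicate 1 alone was high. Its other probe set read 5.62 to 5.63 in wild type and 5.62 and 5.11 in knockout, with the opposite sign.

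The proteasome activators of the PA28 family were measured by Psme1, Psme2 and Psme3. Psme3, the nuclear form, read 5.07, 4.996 and 5.07 in wild-type and 5.98 and 5.34 in knockout arrays. Both knockout arrays were higher, by 0.62 on average (SE 0.22, adjusted p of 0.623 by limma), and without knockout replicate 1 the difference was 0.29. Psme2 read 6.11, 5.98 and 5.71 against 6.11 and 6.36. The values without rounding put knockout replicate 1 just above wild type replicate 1, and the difference was 0.30 (SE 0.16). Psme1, which forms 1 ring with Psme2, read 7.23, 7.11 and 7.12 against 6.93 and 7.34, on either side of wild type, with a difference of -0.02. Psme4, of a larger nuclear activator, differed by -0.26, and Psmf1, an inhibitor of the core particle, by -0.0007, both with overlap. Of the genes kept apart, Psme3ip1 read 8.71, 8.45 and 8.58 against 8.96 and 7.0, a wide split between the knockout arrays. Psmc3ip read 4.79, 4.72 and 4.77 against 4.33 and 5.01.

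**Figure D3:**
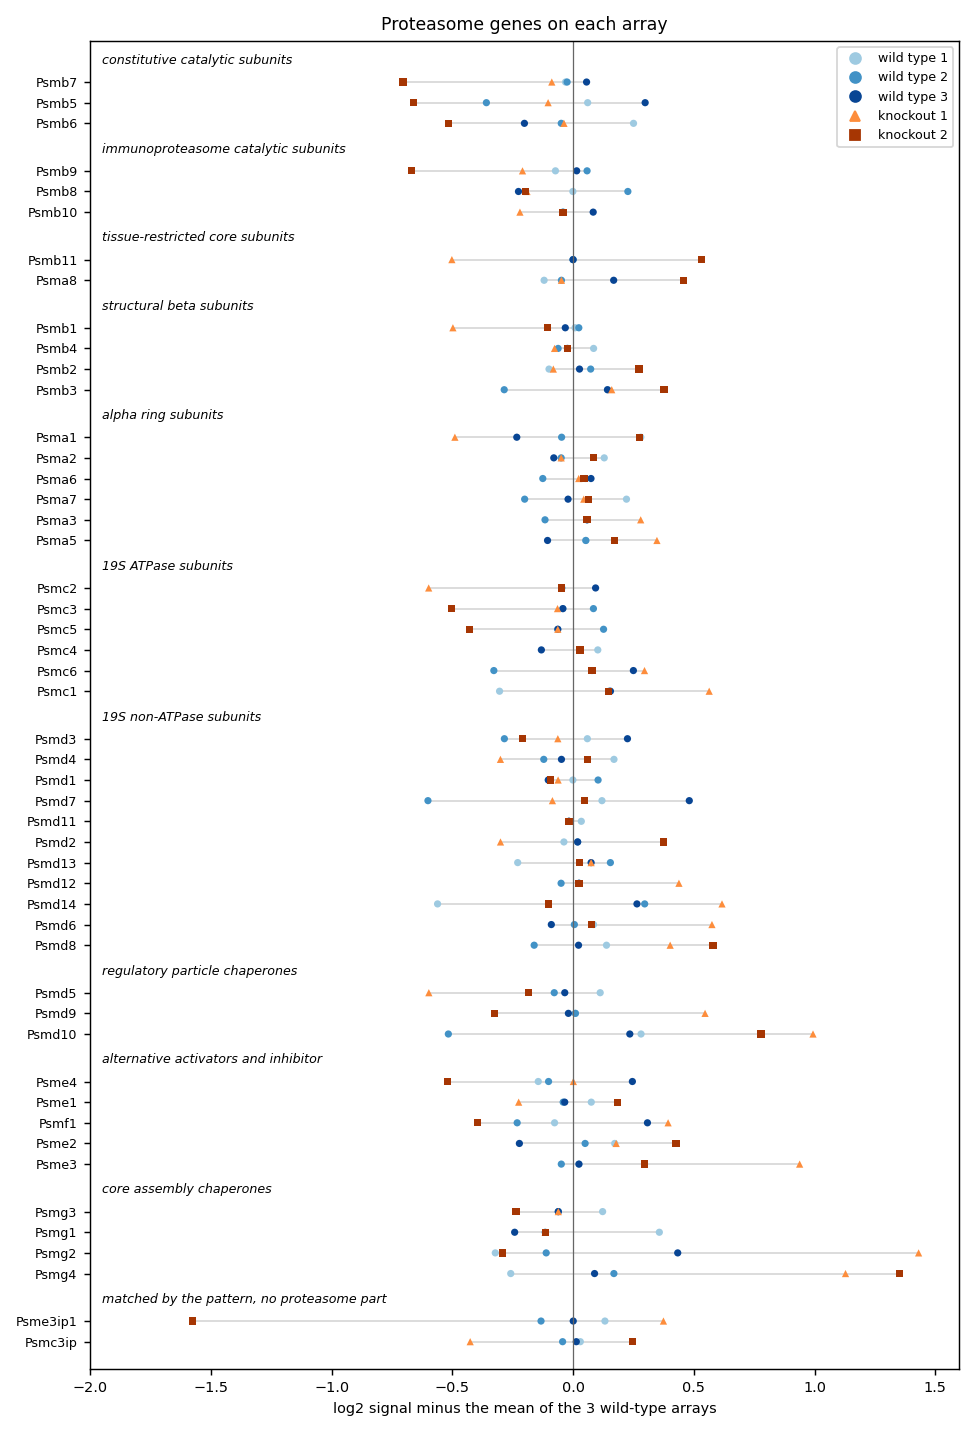
Log2 signal of each of the 49 genes on the 5 arrays, minus the mean of the 3 wild-type arrays, by role; circles are wild type, triangles knockout replicate 1 and squares knockout replicate 2, and equal values cover each other. Both knockout symbols lie clear to the right for Psmg4, Psmd10, Psmd8 and Psme3. The square lies far left of the triangle for Psme3ip1, Psmg2, Psmd9, Psmf1 and the constitutive catalytic subunits, among others. It lies far to the right of the triangle for Psmb11 and Psma1, among others.

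The knockout arrays differed from each other by role. Averaged over genes as a deviation from the wild-type mean, the constitutive catalytic subunits were at -0.08 in replicate 1 and -0.63 in replicate 2, and the immunoproteasome subunits at -0.21 and -0.30. The core assembly chaperones were at 0.60 and 0.18, the regulatory particle chaperones at 0.31 and 0.09, and the alternative activators with the inhibitor at 0.26 and -0.002. The alpha ring was at 0.03 and 0.12 and the non-ATPase subunits at 0.12 and 0.07. For all genes tested the same averages were 0.05 and -0.002. In these means both knockout arrays lay below all wild-type arrays for the immunoproteasome subunits and above them for the core assembly chaperones. The latter did not hold for the median over the 4 chaperones, which was -0.18 on knockout replicate 2, and 2 of the 4 were lower in knockout. Among the immunoproteasome genes Psmb9 alone separated the groups. Psmb8 in knockout lay inside the wild-type range, and Psmb10 on knockout replicate 2 equalled wild-type values at 8.78. Of all single genes tested 18% had no overlap, and how often means of such small groups separate was not tested. For the constitutive catalytic subunits wild type replicate 2, at -0.14, was below knockout replicate 1.

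**Figure D4:**
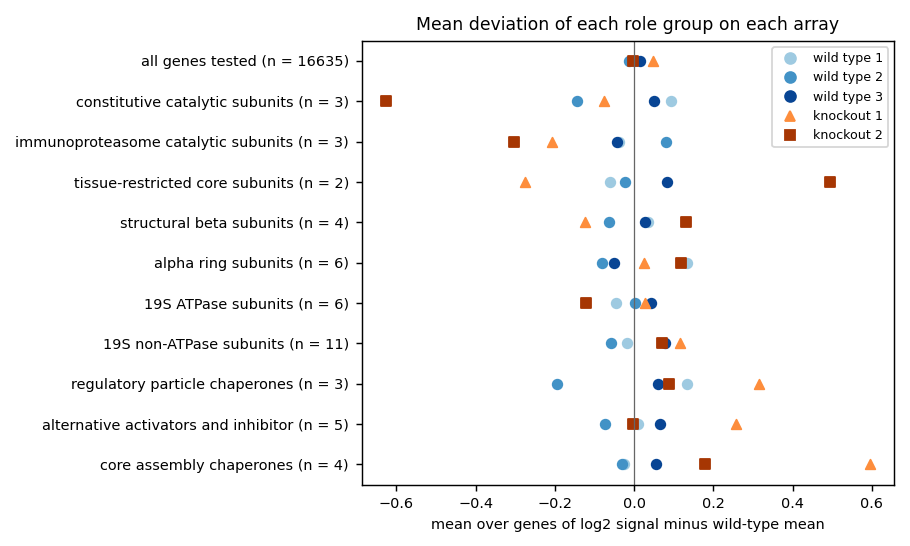
Mean over the genes of each role of the log2 signal minus the wild-type mean, on each of the 5 arrays, with all 16635 genes tested at the top. The immunoproteasome mean is below wild type on both knockout arrays (-0.21 and -0.30), although Psmb8 and Psmb10 each overlap between the groups. The constitutive catalytic subunits are far below on replicate 2 alone (-0.63).

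Fits with a single knockout array show how far calls depended on which array was used. Such a fit takes the spread of the lone array to be that of wild type. Without knockout replicate 1, limma called 4 of the 49 genes (8.16%) and 6.44% of all genes tested. These were Psmb11 at 0.53, Psmb7 at -0.70, Psmd9 at -0.33 and Psme3ip1 at -1.58. Without knockout replicate 2, the array with the high Xist signal, it called 3 of 49 (6.12%) and 2.34% of all. They were Psme3 at 0.94, Psmd9 at 0.55 and Psmb11 at -0.50. Psmb11 and Psmd9 were called in both fits with opposite signs, and their wild-type arrays were equal or nearly so. The fits share the wild-type arrays.

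Promoter sequences are shown for Psmg4 and Psmd8, which had the smallest unadjusted p of the 49, and for Psmb5, Psmb8 and Psmb9, where the exchange of catalytic subunits is encoded. They are from RefSeq on build GRCm38.p6, 5′ to 3′ on the strand of the gene and ending at the base before its start: chr13:34162714-34162963 (+), chr7:29180674-29180923 (-), chr14:54617996-54618245 (-), chr17:34197945-34198194 (+) and chr17:34187331-34187555 (-), each upstream of its gene and outside any other gene of the table. That of Psmb9 is shortened by 25 bases where Tap1 begins. Capitals mark any match, on either strand, to the letters TGACNNNGC (antioxidant response element, bound by the factors of the Nfe2l family that drive proteasome genes), TTCNNNGAA (gamma-activated sequence), GAAANNGAA (interferon-stimulated response element) or CCAAT.
Psmg4: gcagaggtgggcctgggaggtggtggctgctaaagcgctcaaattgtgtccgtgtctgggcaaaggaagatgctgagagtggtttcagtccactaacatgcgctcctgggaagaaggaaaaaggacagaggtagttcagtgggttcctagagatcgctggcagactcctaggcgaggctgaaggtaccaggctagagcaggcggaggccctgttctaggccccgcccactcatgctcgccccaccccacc
Psmd8: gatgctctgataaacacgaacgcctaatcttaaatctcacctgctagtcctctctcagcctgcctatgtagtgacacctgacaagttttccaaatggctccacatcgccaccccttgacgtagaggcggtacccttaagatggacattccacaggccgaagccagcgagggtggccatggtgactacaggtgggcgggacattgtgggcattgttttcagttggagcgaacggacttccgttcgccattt
Psmb5: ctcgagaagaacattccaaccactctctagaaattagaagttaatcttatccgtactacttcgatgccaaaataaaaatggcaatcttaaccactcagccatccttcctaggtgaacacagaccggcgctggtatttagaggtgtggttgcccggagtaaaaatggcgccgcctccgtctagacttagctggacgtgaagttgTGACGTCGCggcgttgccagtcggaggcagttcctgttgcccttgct
Psmb8: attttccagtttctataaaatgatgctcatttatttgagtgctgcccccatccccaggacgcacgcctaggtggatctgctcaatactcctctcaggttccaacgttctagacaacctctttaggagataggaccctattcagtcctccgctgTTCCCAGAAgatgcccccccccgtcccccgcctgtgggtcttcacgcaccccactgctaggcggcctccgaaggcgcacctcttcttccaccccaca
Psmb9: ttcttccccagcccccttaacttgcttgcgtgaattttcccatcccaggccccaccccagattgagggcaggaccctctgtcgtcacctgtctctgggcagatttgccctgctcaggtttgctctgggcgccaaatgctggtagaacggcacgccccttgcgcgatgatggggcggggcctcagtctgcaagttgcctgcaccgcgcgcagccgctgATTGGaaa

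A match describes letters only. In the 250 bases before the start, Psmb5 held TGACGTCGC between 47 and 39 bases before the start, Psmb8 held TTCCCAGAA between 97 and 89 bases before it, and Psmb9 the reverse complement of CCAAT. Psmg4 and Psmd8 held none of the searched letters in this window. Of the 49 genes 41 had a promoter in the table. TGACNNNGC was found in 5 of 41 (12.2%) and 11.5% of all 27025 genes with a promoter there, and TTCNNNGAA in 2 of 41 (4.88%) and 8.13%. GAAANNGAA was found in 3 of 41 (7.32%) and 8.18%, and CCAAT in 16 of 41 (39.0%) and 37.5%, so none of these shares lay far from that of all promoters.

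Other genes of the pathway showed the same picture, with 0 called in any list by limma. Of the remaining proteasome subunits and assembly factors, 3 of 5 listed genes were tested. Sem1, a lid subunit, differed by -0.09, Pomp, the maturation protein of the core, by -0.06 and Ecpas, an adaptor, by 0.19, all with overlap. Of 10 genes for proteasome transcription and nuclear import, 5 were above and 4 below 0 with a median of 0.0047. Mafg had 1 value on all arrays. None of the 10 separated the groups, where 18% of all genes tested did. Nfe2l1, the factor that raises proteasome genes when the proteasome fails, read 6.70, 6.57 and 6.70 against 6.70 and 6.75. Ipo9, an import receptor, read 6.35 to 6.44 in wild type and 6.40 and 5.42 in knockout. Its difference was -0.97 without knockout replicate 1 and 0.0042 without knockout replicate 2. Sel1l differed by -0.53 and Mafk by 0.16.

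The genes for shuttle factors, deubiquitinases and ligases had 8 of 15 members above 0 and a median of 0.0018. Zfand5, which binds the proteasome and stimulates it, read 8.02, 7.70 and 8.19 in wild-type and 9.01 and 8.73 in knockout arrays. Both knockout arrays were higher, by 0.90 on average (SE 0.19), with an adjusted p of 0.466 by limma. Zfand2b, of the same family of zinc finger proteins, was higher by 0.50 (SE 0.15) and Ubqln2, a shuttle factor, by 0.25 (SE 0.11), again without overlap. Such a separation was seen in 3 of 15 genes of this list (20%) and in 18% of all genes tested. At an unadjusted p below 0.05 there were 2 of 15 higher and 0 lower in this list, 13.3% in all, where all genes tested gave 5.05% higher and 2.59% lower.

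Ubiquitin genes themselves were not analysed here, and 8 conjugation genes were tested. Of these 8, the groups did not overlap in 2 (25%), as against 18% of all genes tested. Ube2d1 and Ube2d2a, conjugating enzymes of 1 family, read 8.37 to 8.65 and 7.70 to 8.45 in wild type. In knockout they read 8.91 and 8.92, and 9.0 and 8.68, above all wild-type arrays. The differences were 0.39 (SE 0.10) and 0.77 (SE 0.27), with adjusted p of 0.541 and 0.623 by limma. With the mean of all its probe sets the difference of Ube2d2a was 0.35. Uba6, an activating enzyme, read 5.49 to 5.89 in wild type and 5.49 and 4.67 in knockout, a difference of -0.59 that was -0.19 without knockout replicate 2.

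Among 12 genes of class I peptide loading, 5 were above and 7 below 0, with a median of -0.03. The groups did not overlap in 1 higher and 1 lower gene (16.7%), as against 18% of all genes tested. H2-K1, a class I heavy chain, read 9.81, 9.83 and 9.84 in wild-type and 9.27 and 9.57 in knockout arrays. Both were lower, by 0.41 on average (SE 0.10, adjusted p of 0.528 by limma). With a single knockout array the difference of H2-K1 was -0.26 without replicate 1 and -0.56 without replicate 2. Those fits share the wild-type arrays, which lay very close together for this gene (SD 0.014). The light chain of class I, B2m, read 12.02, 12.11 and 12.12 against 12.18 and 12.30, higher in both by 0.16 (SE 0.06). Tap1, the neighbour of Psmb9, read 7.61, 7.88 and 7.85 against 7.61 and 6.33, so the difference of -0.81 (SE 0.43) came from knockout replicate 2, and it was -0.17 without that array. Tap2 and Tapbp, of the same loading complex, and Nlrc5, the factor that switches on class I genes, were also lowest on that array, at 4.49, 6.95 and 5.22. With Tap1 these were the only ones of the 12 genes that were lowest on knockout replicate 2. That array was the lowest for 21.1% of all genes tested. Erap1, of the same list, went the other way and was highest on it, at 8.65 against 7.82 to 7.92 in wild type. B2m was highest on it as well.

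**Figure D5:**
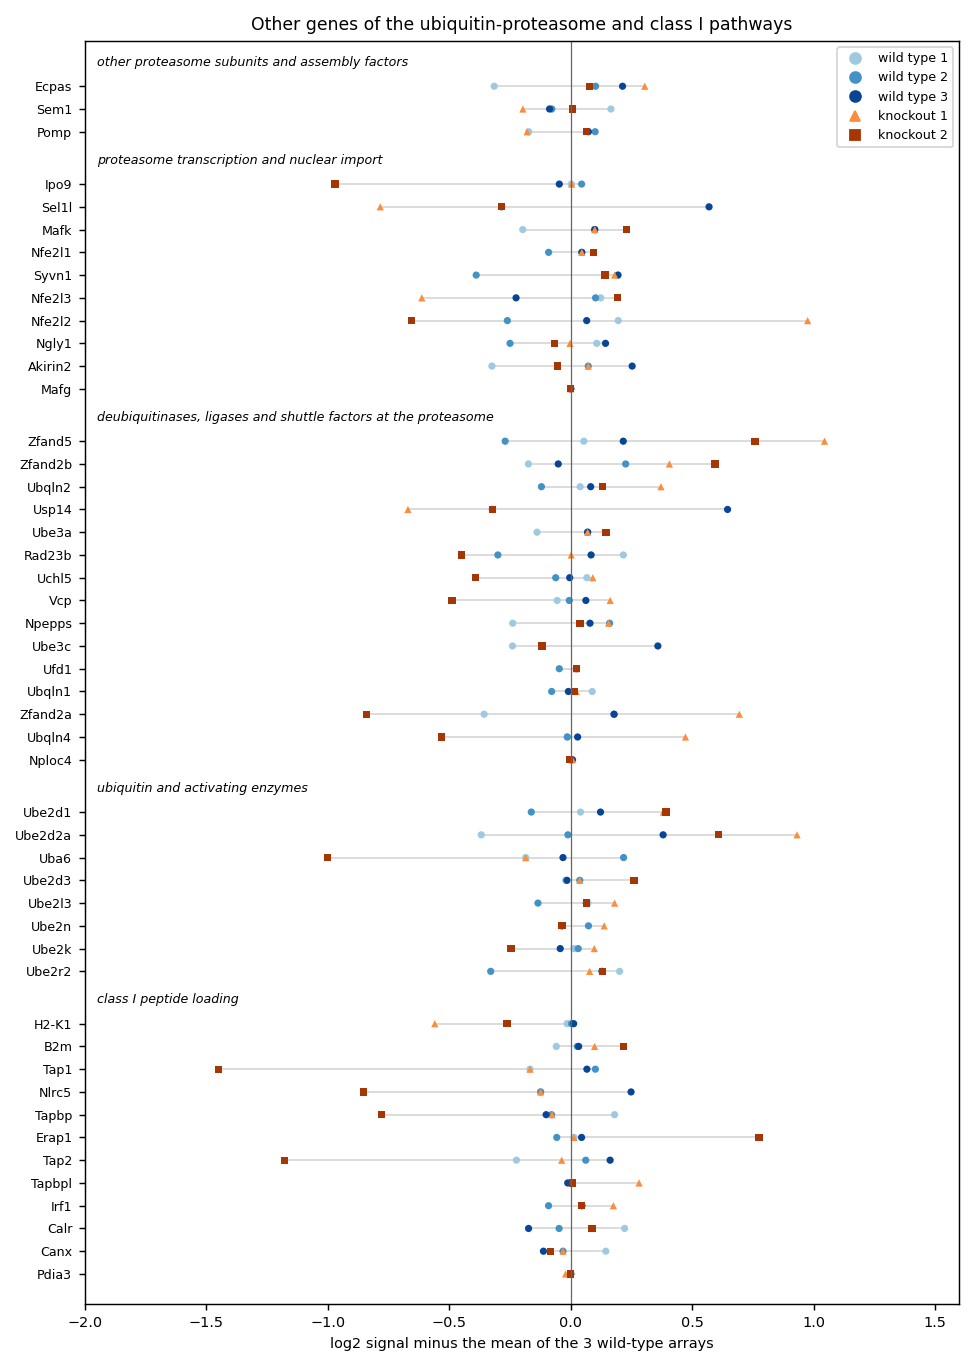
Log2 signal of the 48 other pathway genes tested on the 5 arrays, minus the mean of the 3 wild-type arrays, by list; symbols as for the proteasome genes. Both knockout symbols lie to the right for Zfand5, Zfand2b, Ube2d1 and Ube2d2a and to the left for H2-K1. The square lies far left for Tap1, Tap2, Tapbp, Nlrc5, Ipo9, Uba6 and Zfand2a and far right for Erap1.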

How the data were processed

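Total RNA of the ILC2 samples was extracted with Trizol and labelled with biotin for arrays, per the labels' protocols. The authors deposited 1 log2 signal per probe set and array. The submitters' processing notes name RMA and Affymetrix Expression Console, while settings and annotation release are not given in the sources used here. The near-equal array medians mean that a shift of all genes together cannot be seen.

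Of 41345 probe sets, 23521 had 1 gene symbol, 1814 several and 16010 none. Each gene was read from its probe set of highest mean, the dimmest 25% of genes were dropped, and 16635 genes were tested with limma 3.58.1 in R 4.3.3 (lmFit, eBayes, Benjamini-Hochberg, threshold 0.05), without a block. The fit was tested on simulated data. Values equal across arrays were frequent, so some spreads are too small. Members, lists and the rule for named genes were chosen with earlier results of these data known. By that rule values on every array were given for catalytic subunits, Psme1, Psme2, members at an unadjusted p below 0.05 and up to 2 separated members per role and direction, and up to 3 genes per pathway list were named. Other genes were named after their values were seen. Alternatives changed the filter, probe sets, normalization, variance model, weights, block, threshold and arrays.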

Additional observations from a re-analysis of the deposited data

How the results depend on the processing

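With all 5 arrays, 0 proteasome genes were called under any filter, probe-set rule, normalization, variance model or array weighting run, nor with an adjusted p of 0.1. Leaving out each array in turn gave 0 to 1072 genes called over all genes and 0 to 4 among the 49, both above 0 only with a single knockout array. Over the same fits 14 to 31 of the 49 separated the groups, as did 24.1% to 54.0% of all genes tested, and 1 to 13 had an unadjusted p below 0.05, as did 5.67% to 22.4% of all, with 1 without wild type replicate 3, 2 without replicate 1 and 3 without replicate 2, where 5 had it with all arrays. With the replicate number as a block, 1 of the 49 had an unadjusted p below 0.05 and the shift of Psmb8 against Psmb5 was -0.074; the block ended no call, since 0 were made. Same-numbered arrays correlated at -0.05 and 0.14 in their deviations from the group means. With 2 knockout arrays these deviations mirror each other, so the correlations cannot show or exclude pairing. The numbers were not taken as pairs. Without single arrays, that shift ran from -0.087 to 0.48 and that of Psmb10 against Psmb7 from -0.13 to 0.66. The difference of Psme1 ran from -0.23 to 0.18, and it was 0.0063 after quantile normalization. Those of Sem1 (-0.20 to 0.0081), Pomp (-0.18 to 0.064) and Ipo9 (-0.97 to 0.0042) also changed sign. The other 28 of the 32 genes followed kept their sign under every alternative run. Many of the 32 were chosen for a low p or separated groups in the same arrays. Their kept signs were thus partly fixed by the choice and are no independent support. The cause of the shifts between settings was not tested. The setting that kept only genes of 4 or more distinct values was added after seeing the data. The number of arrays limits the precision, and signals near the lower quartile, as for Psma5, have an uncertain size.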
